A study of Bos taurus with 3 samples.

Results

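Prostaglandin synthesis, sensing and breakdown were examined through 10 genes in cultured cells of the bovine ovary. The genes were the cyclooxygenases PTGS1 and PTGS2, the synthases PTGES, PTGES3, PTGIS and AKR1B1, the receptors PTGER2, PTGER4 and PTGFR, and the breakdown enzyme HPGD. They were chosen by name, and all 10 had at least 1 probe set whose platform annotation gave that symbol alone. Together they were read by 16 of the 24016 probe sets of the array, and they are 10 of the 9155 genes named on it. Where several probe sets read a gene, its value here is that of the probe set with the highest mean over the arrays.

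RNA of 3 cultures from Bos taurus ovaries was measured, each on 1 Affymetrix GeneChip Bovine Genome Array. The 2 fetal cultures were isolates of Gonadal Ridge Epithelial-Like (GREL) cells, polygonal cells that the study describes as clonally enriched and that the labels place at 130 days of gestation. The study's methods put isolate 1 a few days younger than isolate 2. The third culture held fibroblasts of the ovarian medulla of an adult, labelled as over 1 year old. All 3 were grown in the same serum-containing medium with no agent named as a treatment, and the adult culture has no replicate. The study's methods give a higher concentration of collagenase for the adult tissue, and a degree of confluence at harvest only for the fetal cultures. Fetal against adult origin, GREL against fibroblastic cells and these differences of handling therefore cannot be told apart in this comparison.

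Prostaglandins are short-lived lipid signals made from arachidonic acid. Cyclooxygenase turns arachidonic acid into an unstable intermediate, and a set of terminal synthases converts this intermediate into the E, F, D and I series or into thromboxane. Each product leaves the cell and acts on its own G protein-coupled receptor, and uptake followed by oxidation ends the signal. In the ovary prostaglandins are best known for their part in ovulation and, through the F series, in regression of the corpus luteum.

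Values are log2 intensities that the authors obtained with RMA and quantile normalization, and they are rounded to steps of 0.1. As no detection calls were used, 53 genes typical of other organs served as a reference for background. The reference median was 2.1 in the fibroblasts, 2.0 in GREL isolate 1 and 2.2 in GREL isolate 2. The reference 90th percentile was 6.16, 6.2 and 6.64 for these cultures, and the reference 95th percentile was 8.6, 8.56 and 8.5, a level set by bright probe sets of POMC, APOA1, IBSP, ALB and PRL. A gene below these levels may still be expressed, but the size of its difference is uncertain. The simple keratin KRT19 read 7.1 in fibroblasts against 11.3 and 11.6 in the isolates. The stromal receptor PDGFRA read 8.3 against 6.1 and 5.5. Both markers differed in the direction of the labels. KRT18, another simple keratin, was at 10.4 in fibroblasts against 11.4 and 11.8 in the isolates, above the reference 95th percentile on each array. In the study's staining of fetal ovaries, cytokeratin 18 was scored as not expressed in stromal cells. The study listed KRT19 as higher in GREL cells from these same arrays, so its direction is no independent check. FOXL2, a transcription factor of granulosa cells, was at 1.8, 1.9 and 2.0, below the reference median on each array. The study stained FOXL2 protein in GREL cells of fetal ovary sections. The epithelial cadherin CDH1 was at 3.6, 4.7 and 3.2.

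Of the 10 genes, 1 was over 3-fold higher in both GREL isolates than in the fibroblasts, against 2.38% of all 9155 genes, and 3 were over 3-fold lower in both, also against 2.38%. The higher gene was PTGER4, a receptor of prostaglandin E2, and the lower genes were PTGS2, PTGES and PTGIS, which are a cyclooxygenase, a prostaglandin E synthase and the prostacyclin synthase. By any amount 4 of the genes were higher in both isolates (41.6% of all genes) and 5 were lower in both (33.5%), while in PTGS1 the isolates lay on opposite sides of the fibroblasts. At 2-fold in both isolates the counts were 2 higher (5.8% of all genes) and 4 lower (4.78%), with AKR1B1 and PTGFR added. Without isolate 1, 3 genes were over 3-fold higher, since HPGD and AKR1B1 passed in isolate 2 alone. In the fit across all probe sets with limma, 0 of the 10 genes passed an adjusted p under 0.05, against 0.0% of all probe sets. At an unadjusted p under 0.05 the fit gave 2 of the genes as higher (9.8% of probe sets) and 4 as lower (11.1%). With a robust prior for the spread limma called 571 probe sets as higher and 618 as lower, and the methods' test called 0 in either direction after adjustment. That fit has 1 residual degree of freedom, since the spread comes from the 2 isolates alone, and it assumes that the single fibroblast culture varies as they do. An exact permutation test of 2 arrays against 1 cannot give a p below 0.333.

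**Figure D1:**
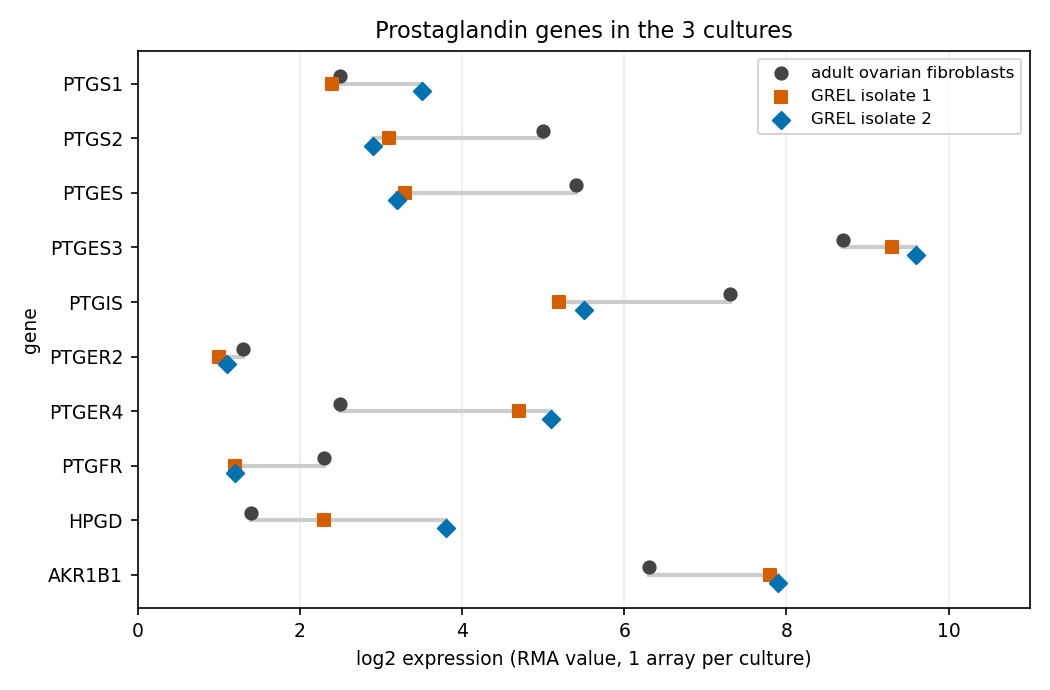
Log2 expression (horizontal axis, RMA values) of the 10 prostaglandin genes in the 3 cultures (circles for fibroblasts, squares for GREL isolate 1, diamonds for isolate 2), 1 array each, with a grey line from the lowest to the highest value. Both isolates lie to the left of the fibroblasts in PTGS2, PTGES and PTGIS and to the right in PTGER4 and AKR1B1.

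The cyclooxygenases carry out the committed step, PTGS1 as the form that many cells express constantly and PTGS2 as the form induced by cytokines, growth factors and gonadotrophins. PTGS2 read 5.0 in fibroblasts, 3.1 in GREL isolate 1 and 2.9 in GREL isolate 2. Both isolates lay below the fibroblasts, by 3.73-fold and 4.29-fold. PTGS2 had a mean log2 difference of -2.00 (limma standard error 0.14, adjusted p = 0.184), which was larger than the gap of 0.2 between the isolates. Of all 9155 genes, 1.76% had a more negative mean difference. PTGS2 lay below the reference 90th percentile on all 3 arrays, so the fold is uncertain.

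PTGS1 read 2.5 in fibroblasts, 2.4 in isolate 1 and 3.5 in isolate 2. Isolate 1 and the fibroblasts were 0.1 apart, and only isolate 2 lay above them, by 2.00-fold. PTGS1 had a mean log2 difference of 0.45 (limma standard error 0.77, adjusted p = 0.731), smaller than the gap of 1.1 between the isolates. A gap at least that wide was found in 2.30% of all genes.

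The terminal synthases did not differ in 1 direction. PTGES, the inducible membrane-bound prostaglandin E synthase that is often expressed together with PTGS2, read 5.4 in fibroblasts against 3.3 and 3.2 in isolates 1 and 2. It was 4.29-fold and 4.59-fold lower in the isolates, which lay 0.1 apart. Its mean log2 difference was -2.15 (limma standard error 0.07, adjusted p = 0.182), and 1.52% of all genes had a more negative one. That standard error rests on isolates 0.1 apart, the rounding step, as it also does for AKR1B1 and PTGER2. It may therefore be too small. As with PTGS2, every value of PTGES was below the reference 90th percentile.

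PTGIS, which makes prostacyclin, read 7.3 in fibroblasts against 5.2 and 5.5 in the isolates. Both isolates were lower, by 4.29-fold and 3.48-fold, and the mean log2 difference was -1.95 (limma standard error 0.21, adjusted p = 0.200). The fibroblast value lay above the reference 90th percentile (7.3 against 6.16) and the values of both isolates lay below it. Among the 3990 genes whose fibroblast value was 5.0 or higher, the lowest value among PTGS2, PTGES and PTGIS, 4.46% were over 3-fold lower in both isolates. This comparison was chosen after the data were seen.

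PTGES3 is a cytosolic prostaglandin E synthase that also serves as a co-chaperone of HSP90. It read 8.7 in fibroblasts against 9.3 and 9.6 in the isolates, and it was the only one of the 10 genes to lie above the reference 95th percentile, which it did on all 3 arrays. The isolates were 1.52-fold and 1.87-fold higher, with a mean log2 difference of 0.75 (limma standard error 0.21, adjusted p = 0.286). PTGES and PTGES3, which make the same product, thus lay on opposite sides of the fibroblast level.

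AKR1B1, aldose reductase, reduces glucose to sorbitol and in cattle also acts as a prostaglandin F synthase. It read 6.3 in fibroblasts against 7.8 and 7.9 in the isolates, above the reference 90th percentile on each array. The isolates were 2.83-fold and 3.03-fold higher, so only isolate 2 passed 3-fold. For AKR1B1 the mean log2 difference was 1.55 (limma standard error 0.07, adjusted p = 0.182), larger than the gap of 0.1 between the isolates. Of all genes, 3.31% had a larger mean difference.

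The receptors for prostaglandin E2 that raise cyclic AMP are PTGER2 and PTGER4, and PTGFR is the receptor of the F series that signals through calcium. PTGER4 read 2.5 in fibroblasts against 4.7 and 5.1 in the isolates. It was higher in both, by 4.59-fold and 6.06-fold, and 0.907% of all genes had a larger mean difference. The mean log2 difference of PTGER4 was 2.40 (limma standard error 0.28, adjusted p = 0.200), against a gap of 0.4 between the isolates. Its fibroblast value was close to the reference median, and its values in the isolates were between the reference median and 90th percentile.

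PTGER2 read 1.3 in fibroblasts, 1.0 in isolate 1 and 1.1 in isolate 2, below the reference median on every array. At that level the mean log2 difference of -0.25 (limma standard error 0.07, adjusted p = 0.286) cannot be set apart from background. PTGFR read 2.3 in fibroblasts against 1.2 in each isolate, 2.14-fold lower in each. Its mean log2 difference was -1.10 (limma standard error 0.03, adjusted p = 0.182), and the standard error is too small, since both isolates round to 1.2. With a robust prior for the spread PTGFR was the 1 gene of the 10 that passed in limma (adjusted p = 0.0452). The fibroblast value of PTGFR was near the reference median and the isolates were below it.

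HPGD, hydroxyprostaglandin dehydrogenase, oxidizes prostaglandins E2 and F2-alpha to products with little activity. It read 1.4 in fibroblasts, 2.3 in isolate 1 and 3.8 in isolate 2. Both isolates were higher, by 1.87-fold and 5.28-fold, but they differed from each other by 1.5, a gap reached by 0.710% of all genes. The mean log2 difference of HPGD was 1.65 (limma standard error 1.04, adjusted p = 0.483). PTGS1 and HPGD were the only genes of the 10 in which the isolates lay more than 0.4 apart, and isolate 2 was the higher isolate in both.

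**Figure D2:**
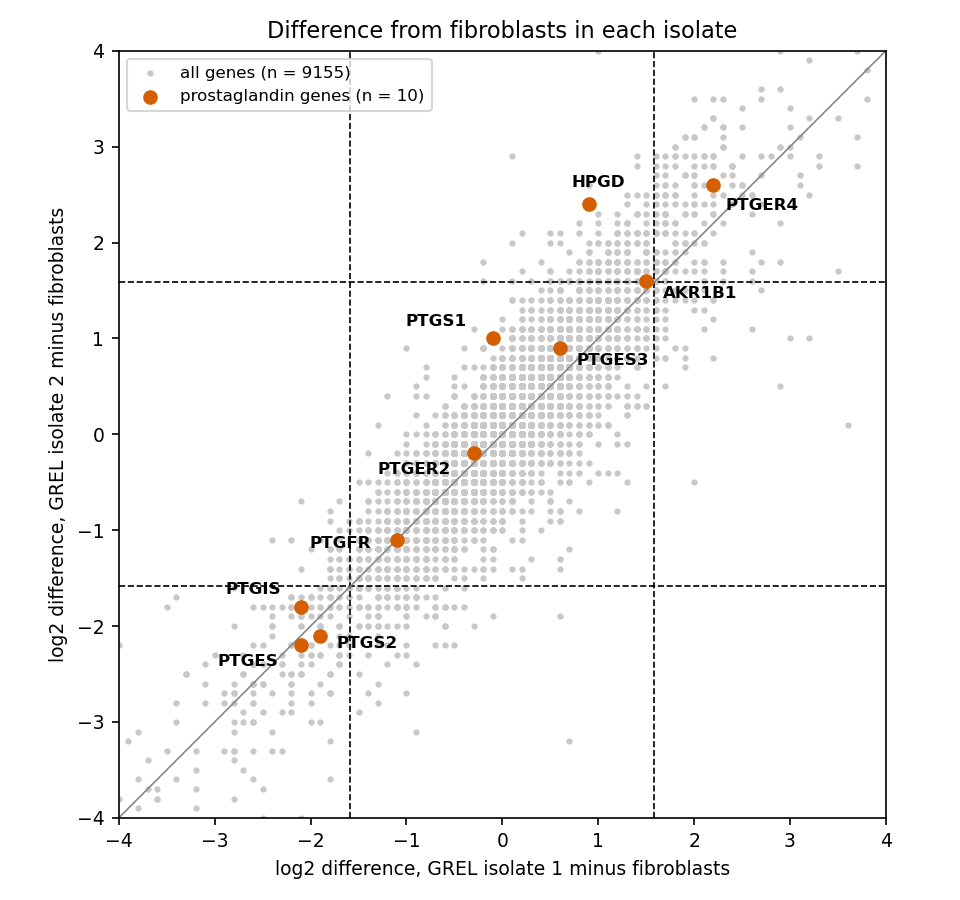
Log2 difference from the fibroblasts in GREL isolate 1 (horizontal axis) and in GREL isolate 2 (vertical axis) for all 9155 genes (grey) and for the 10 prostaglandin genes (orange), with dashed lines at 3-fold and a solid line where the isolates are equal. PTGS2, PTGES and PTGIS sit in the lower left corner and PTGER4 in the upper right, HPGD and PTGS1 lie off the line of equality, and 37 genes fall outside the axis limits of 4.

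Of the 10 genes, 6 had a single probe set and 4 had several, so agreement between probe sets could be examined in PTGS1, PTGS2, PTGFR and HPGD. The 2 other probe sets of PTGS2 were dim, one at 1.5 in fibroblasts against 1.2 in each isolate, the other at 1.4 against 0.8 and 0.9. Both lay below the fibroblasts in each isolate, as the bright probe set did, but by at most 0.6 on the log2 scale. For HPGD the second probe set read 1.2 in fibroblasts against 1.1 and 1.3 in the isolates, so the higher level in isolate 2 was seen with 1 of its 2 probe sets. The second probe set of PTGS1 was at 1.4, 1.3 and 1.8, with isolate 2 again the highest. The other probe sets of PTGFR were at 1.3, 1.2 and 1.1 and at 1.0, 0.8 and 1.1, and showed no difference beyond 0.2. All of these additional probe sets were below the reference median. Averaged over all probe sets of a gene, the mean log2 difference was -0.95 for PTGS2, -0.43 for PTGFR and 0.825 for HPGD.

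**Figure D3:**
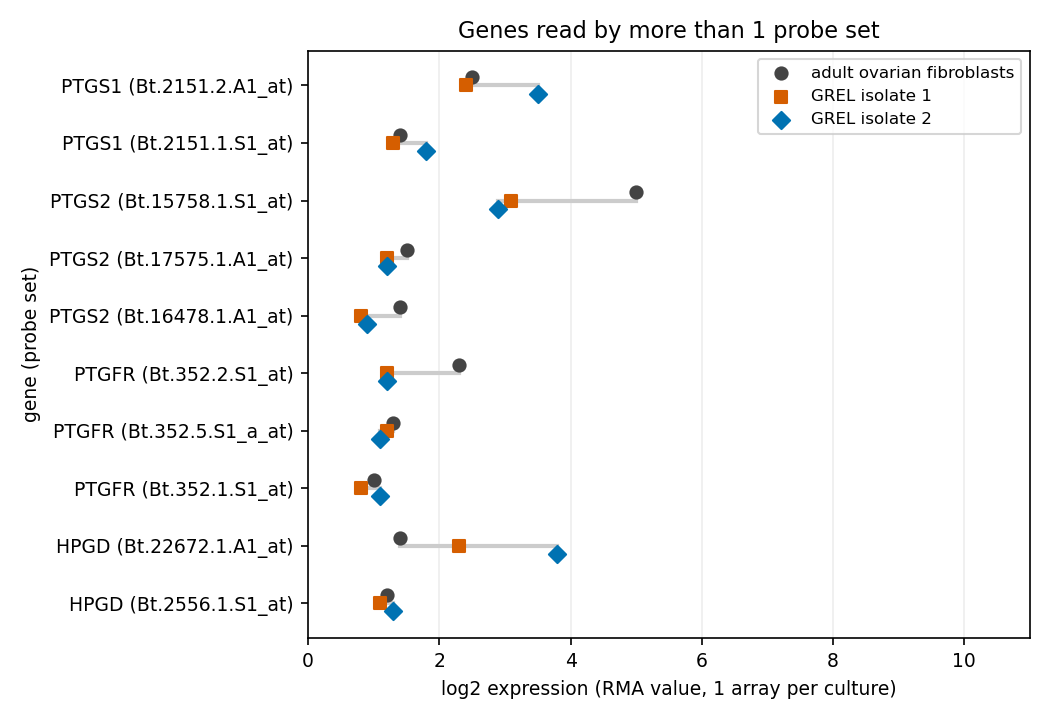
Log2 expression (horizontal axis, RMA values) at each probe set of the 4 genes read by more than 1, with circles for fibroblasts, squares for GREL isolate 1 and diamonds for isolate 2. For each gene the top row is the probe set used in the text, and the other rows lie between 0.8 and 1.8.

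Because these are whole cultures, fewer cells of a type and less RNA per cell cannot be told apart. Counts in the marker lists are read against the 41.6% of all genes higher in both isolates and the 33.5% lower in both. Of 12 stromal markers 9 were lower in both isolates and 0 higher, 2 of them over 3-fold (2.38% of all genes). The other 3 were VIM, POSTN and THY1. The summed signal of the 12, the sum of unlogged intensities in arbitrary units, was 13182 in fibroblasts against 9036 and 5921 in the isolates. Several stromal markers stayed above the reference 95th percentile in both isolates. COL1A2 was at 12.0 against 11.5 and 10.5, and DCN, decorin, at 11.4 against 10.8 and 10.1. VIM was at 10.9 against 10.9 and 10.8, and COL1A1 was at 9.7 against 8.7 and 7.4. The study describes GREL cells of fetal ovaries as not expressing collagen type I or decorin. Of 8 markers of smooth muscle, a tissue that expresses prostacyclin synthase, 5 were lower in both, with a summed signal of 5335.5 in fibroblasts against 3502 and 3361 in the isolates. Most of that fall was MYLK, myosin light chain kinase, at 10.6 against 8.0 and 7.0. The abundant smooth muscle actin ACTA2 was at 10.5, 10.4 and 10.7 and transgelin, TAGLN, was at 10.2 in fibroblasts with log2 differences of 0.1 and -0.2, so the isolates lay on either side of the fibroblasts in both genes. The defining smooth muscle myosin MYH11 was at 1.7, 1.3 and 1.9, below the reference median in each culture. Of 8 endothelial markers 2 were lower in both and 1 higher, a share lower than that over all genes. Their summed signal was 55.1 in fibroblasts against 34.5 and 36.7, a difference mostly of the sialomucin EMCN (4.7 against 3.1 and 2.9), while PECAM1 and VWF were between 1.6 and 2.1 on all arrays. Of 10 epithelial markers 7 were higher in both isolates and 1 lower, at a summed signal of 2084 against 5798 and 6960. Over 3-fold higher beside KRT19 were the desmosomal PKP2 at 3.3 against 6.4 and 6.0, the tricellular junction protein LSR at 3.3 against 5.7 in each isolate, and the keratin KRT7 at 2.3 against 4.4 and 4.9. KRT19 and these genes are in the study's list of genes over 3-fold higher in GREL cells, drawn from these same arrays. The epithelial count and summed signal therefore rest partly on genes selected from these data and are no independent check. The claudin CLDN1 was lower, at 9.1 against 8.5 and 6.9. Of 10 leukocyte markers 5 were higher in both and 4 lower in both, both near the shares over all genes. Their summed signals were 86.1, 34.8 and 49.0, and that difference rests on KIT, a receptor kinase of mast cells and germ cells, at 5.7 against 1.5 and 2.7. The other 9 were between 1.2 and 2.8 on all arrays, among them PTPRC, which all leukocytes express, at 2.1, 2.0 and 1.9. Of 9 granulosa markers 5 were higher in both and 2 lower in both, with summed signals of 653, 693 and 536. The part of these cell types in the differences of the prostaglandin genes was not tested.

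The wider pathway was examined with 9 lists of 126 gene symbols, of which 90 had a named probe set. The 126 include FAM213B and ZADH2, other symbols of the measured genes PRXL2B and PTGR3. In both isolates 2 of the 90 were over 3-fold higher (2.38% of all genes) and 8 over 3-fold lower (2.38%), and 0 passed an adjusted p under 0.05 in limma. Upstream, of 8 measured genes that release or handle arachidonic acid 0 were over 3-fold higher or lower, with a median log2 difference of 0.15 against 0.05 for all genes. ACSL3, an acyl-CoA synthetase, read 5.0 in fibroblasts against 7.1 and 6.1 in the isolates. PLA2G7, a secreted phospholipase A2 that inactivates platelet-activating factor, read 1.7 in fibroblasts against 3.3 and 3.0 in the isolates. The cytosolic phospholipase PLA2G4A was not analysed here.

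Among 6 further prostanoid synthases 5 were lower in both isolates (33.5% of all genes), with a median log2 difference of -0.60. One of the 5, AKR1C4, was at 1.9 against 1.8 in each isolate, below the reference median. PTGDS, the lipocalin-type prostaglandin D synthase, read 9.7 in fibroblasts against 7.2 and 7.9 in the isolates, 5.66-fold and 3.48-fold lower (mean log2 difference -2.15, limma standard error 0.49, adjusted p = 0.278). It was the only one of the 6 past 3-fold in both, and it was bright in the fibroblasts, above the reference 95th percentile. PRXL2B, a prostamide and prostaglandin F synthase, was at 8.0 against 7.0 and 7.1. TBXAS1, the thromboxane synthase, read 1.7 in fibroblasts against 2.1 in each isolate, and AKR1C3, an aldo-keto reductase, read 1.3 against 0.7 and 0.9, all near or below the reference median.

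Of 4 further receptors measured 0 were over 3-fold higher or lower, and their median log2 difference was -0.03. PTGER3, the E2 receptor that lowers cyclic AMP, read 2.5 in fibroblasts against 2.4 in each isolate. PTGDR2, a receptor of prostaglandin D2, was at 2.4, 2.5 and 2.4. Of 6 genes of transport and further breakdown, 3 were higher in both isolates and 0 passed 3-fold. PTGR1, which reduces the keto product that HPGD makes, read 5.4 in fibroblasts against 6.8 and 6.5 in the isolates, while the uptake carrier SLCO2A1 was at 1.4, 1.6 and 1.7. In the leukotriene branch, which draws on the same arachidonic acid, 0 of 8 genes passed 3-fold. Its first enzyme ALOX5 was at 1.4, 1.5 and 1.7 and the activating protein ALOX5AP at 1.2, 1.1 and 1.3, both below the reference median. LTA4H, a hydrolase that makes leukotriene B4, read 5.6 in fibroblasts against 6.6 and 6.9 in the isolates, and the leukotriene B4 receptor LTB4R read 3.2 against 1.8 and 1.7.

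Of 20 measured inducers and regulators of PTGS2, 4 were over 3-fold lower in both isolates and 2 over 3-fold higher (2.38% of all genes in each direction), with a median log2 difference of -0.33. IL1R1, the receptor through which interleukin-1 induces PTGS2, read 5.0 in fibroblasts against 3.3 and 2.7 in the isolates. FOS, a subunit of AP-1, was at 8.7 against 6.8 and 7.1. The cytokine IL6 read 7.0 in fibroblasts, 4.6 in isolate 1 and 2.3 in isolate 2, so the isolates themselves were far apart. ZFP36, which binds AU-rich elements and destabilizes PTGS2 mRNA, read 7.1 in fibroblasts against 4.5 and 3.8 in the isolates. The list therefore held lower values both for genes that raise PTGS2 and for a gene that lowers it. The higher genes were NFKBIA, the inhibitor of NF-kappa-B, at 4.5 against 6.8 and 6.1, and CAV1, a caveolar protein that binds PTGS2, at 7.6 against 9.2 and 9.7. IL1B, RELA and JUN differed by 0.3 or less in either isolate.

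Among 17 measured targets of prostaglandin E2 and cyclic AMP, 3 were over 3-fold lower in both isolates and 0 over 3-fold higher (2.38% of all genes in each direction), with a median log2 difference of 0.05. The orphan nuclear receptors NR4A1 and NR4A2, which cyclic AMP induces, were at 6.7 and 5.1 in the fibroblasts. In the isolates NR4A1 was at 3.9 and 3.3 and NR4A2 at 3.3 and 2.4. VEGFA, the endothelial growth factor, read 8.7 in fibroblasts, 6.9 in isolate 1 and 5.1 in isolate 2. In the other direction HAS2, which makes the hyaluronan of the expanding cumulus, was at 4.8 against 6.3 in each isolate.

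PTGES3 was set beside the chaperones it works with. Of 13 measured HSP90 partners 11 were higher in both isolates, or 84.6% against 41.6% of all genes, and their median log2 difference was 0.95, while 0 passed 3-fold. In the fibroblasts 8 of the 13 lay above the reference 90th percentile, against 2323 of all 9155 genes. The 2 shares are thus over genes of unlike brightness, and no share at like brightness was taken. HSP90AA1, the inducible HSP90, read 10.2 in fibroblasts against 10.8 and 10.9 in the isolates. STIP1, which links HSP70 to HSP90, was at 7.0 against 8.0 and 8.4, and the phosphatase PPP5C at 3.1 against 4.5 and 4.8. The difference of PTGES3 (0.75) lay within the range of its partners, from -0.20 for FKBP5 to 1.55 for PPP5C. Around AKR1B1 the 8 measured aldo-keto and polyol enzymes had a median log2 difference of 0.03 and 0 passed 3-fold. AKR1A1, aldehyde reductase, read 8.5 in fibroblasts against 7.5 in each isolate, opposite in direction to AKR1B1, and the sorbitol dehydrogenase SORD was at 3.5, 3.5 and 3.8.

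**Figure D4:**
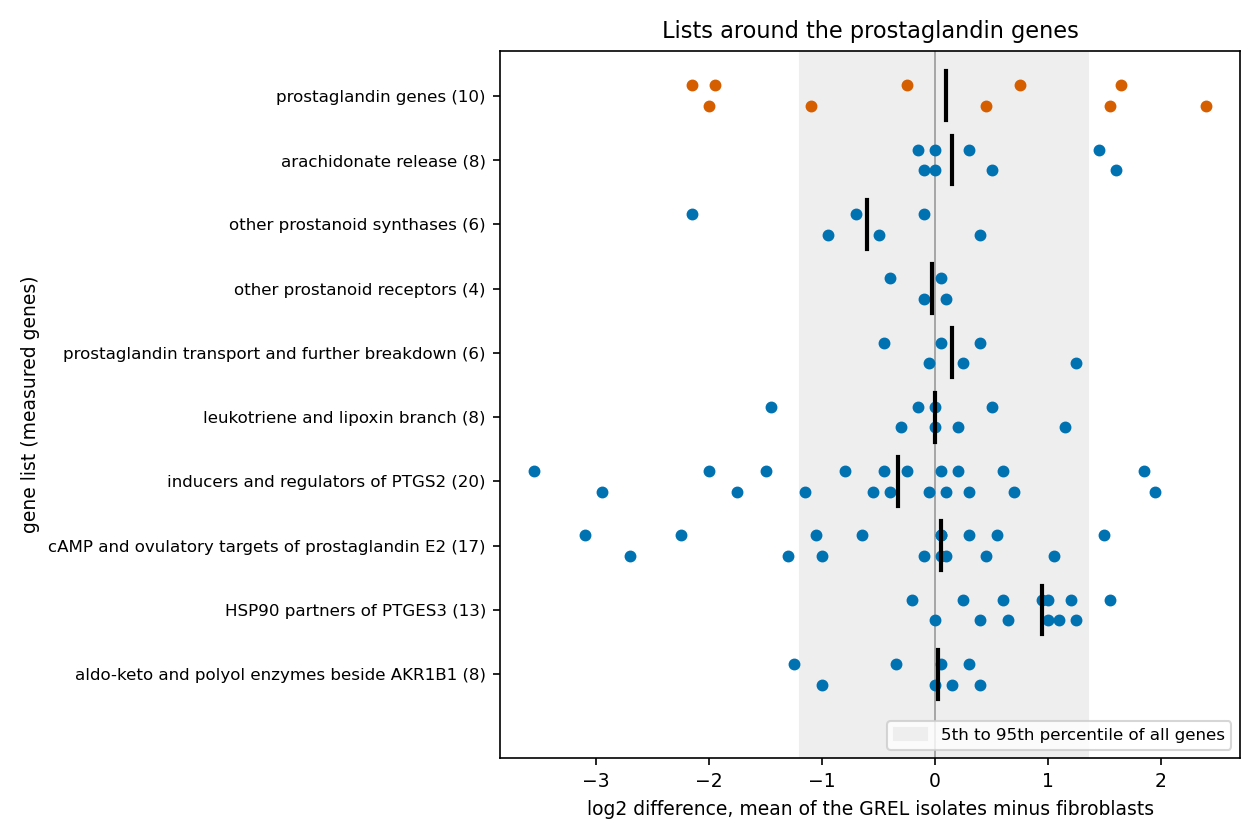
Mean log2 difference of GREL isolates minus fibroblasts (horizontal axis) for the 10 prostaglandin genes (orange) and the measured genes of 9 lists around them (blue), black bars at list medians and the range from the 5th to the 95th percentile of all genes in grey. The 10 genes spread from -2.15 to 2.40 around a median of 0.10, and the HSP90 partners have a median of 0.95.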

How the data were processed

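The authors background-subtracted, quantile normalized and log2 transformed the 3 arrays (RMA, in Partek version 6.5 per the labels), and the deposited log2 values carry no detection calls. The number of arrays limits the precision. The 112 control probe sets were left out of 24128, and 0 columns were unused. Symbols came from the platform annotation (13292 probe sets with 1 symbol, 86 with several and 10638 unnamed here). Of the named probe sets 13263 had an identifier in a current gene table, and 0 symbols differed from it. The genome build is not given in the sources used here, and coordinates are left out. The isolates and fibroblasts were compared by limma 3.58.1 in R 4.3.3 (lmFit and eBayes, Benjamini-Hochberg over 24016 probe sets). Counts over 3-fold in both isolates were also taken. On simulated data only the mean recovery of planted differences had to meet a set limit. Calls of probe sets were counted there without such a limit and are not given here. Tables were made in Python 3.11.15 (pandas 2.3.3, numpy 2.4.6). Isolates are described as separate fetal cultures, so p-values measure the spread between these cultures only. The genes and lists were chosen with earlier results of these data known. Named were all 10 genes, the genes of each list over 3-fold in both isolates and some of the up to 3 with the highest and 3 with the lowest signed difference (the isolate nearer 0, or 0 where they disagree), ties included. ALOX5AP, IL1B, RELA, JUN, HSP90AA1, SORD, PTPRC, KRT18, COL1A1, COL1A2 and DCN were added for their roles after their values were seen. Alternatives were another prior, the methods' test, a filter on dim probe sets, other normalizations, other fold and background levels, the mean over probe sets, and leaving out either isolate.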

Additional observations from a re-analysis of the deposited data

How the results depend on the processing

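The directions of the 10 genes held in every alternative run except that of PTGS1, whose log2 difference was -0.10 without GREL isolate 2. Of 80 recomputed differences of the 10 genes, 76 counted as unchanged. In limma and the methods' test this meant the same direction and side of the threshold. Leaving out an isolate could fail only by a change of direction. The mean over probe sets cannot differ for the 6 genes with 1 probe set. The count of 76 was therefore partly fixed in advance and is no measure of robustness. The mean over probe sets brought PTGS2 to -0.95, PTGFR to -0.43 and HPGD to 0.825, and the cause was not tested. HPGD counted as unchanged because its isolates lay far apart. With that mean 2 genes were over 3-fold lower in both isolates instead of 3, as PTGS2 no longer passed. Limma with a robust prior called 571 probe sets higher and 618 lower, and 1 of the 10 genes, PTGFR (adjusted p = 0.0452), whose isolates round to the same value. Over the other settings of limma and the methods' test the adjusted p of the 10 genes lay between 0.182 and 0.835. At 2-fold in both isolates 2 genes were higher (PTGER4 and AKR1B1) and 4 lower (PTGFR in addition). Leaving out an isolate gave 1 to 3 genes over 3-fold higher, the 3 without isolate 1 being PTGER4, HPGD and AKR1B1, and 3 lower either way. With only probe sets above the reference 95th percentile on at least 1 array, PTGES3 alone remained, so 0 genes were over 3-fold higher and 0 lower. At the 90th percentile, 6.16 in fibroblasts against 6.2 and 6.64 in the isolates, 3 genes lay above the level on at least 1 array. The methods' test gave no value for PTGFR, whose isolates do not differ. No paired analysis was possible because the fibroblasts have 1 culture.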

Other observations

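Of the markers not yet described, GATM and TCF21 were over 3-fold apart in both isolates. GATM, a creatine synthesis enzyme listed among granulosa markers, read 4.3 in fibroblasts against 7.5 and 6.8 in the isolates. It was the only 1 of the 9 granulosa markers past 3-fold. SERPINE2 was lower, at 9.0 against 8.3 and 8.2, as was HSD17B1, at 2.8 against 2.1 in each isolate. CYP19A1 (1.7, 1.8 and 1.8) and FSHR (1.2, 1.1 and 1.4) were below the reference median. TCF21, a stromal transcription factor, was lower, at 7.4 against 3.4 and 3.2. Neither GATM nor TCF21 passed an adjusted p under 0.05 in limma.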
